A study of Mus musculus with 24 samples.

Results

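In the thoracic aorta of Klotho-deficient mice, 200 of 41012 genes were taken as lower than in wild-type mice on both of the diets tested, a minimal and a high magnesium diet. They were chosen from the measured values. The reads of each gene were summed and expressed per 1000000 reads of the library (CPM), and the median of log2(CPM+1) was taken in each of the 4 groups of mice. Genes whose 2 Klotho-/- medians lay within 0.5 of each other were kept, and each was scored as the smaller of the 2 wild-type medians minus the larger of the 2 Klotho-/- medians. A score above 0 was found for 2637 genes, and the 200 of highest score are the members described here. The contrasts between genotypes on both diets therefore chose the members, and their values below are a description that carries no test.

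The mice were C57/BL6 animals aged 8 weeks, wild type or Klotho-/-, and per the labels each library was 1 animal. From birth they ate a diet of 0.05% (minimal) or 0.48% (high) magnesium by weight, and each of the 4 combinations of genotype and diet held 6 mice. Wild-type mice on minimal magnesium were the study's control group. The labels name no floxed allele, Cre driver or transgene, so the deletion is described only as Klotho-/- in the whole animal, which holds for both Klotho-/- groups and for neither wild-type group.

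Klotho is a membrane protein of the kidney that acts with FGF receptors as the receptor for FGF23, the bone hormone that makes the kidney excrete phosphate. Mice that lack it retain phosphate, show features of early ageing and deposit calcium phosphate in the medial layer of their arteries. The wall of the aorta holds endothelium, layers of smooth muscle and elastic sheets, and an outer layer of fibroblasts that lies against fat. Magnesium slows the ripening of calcium phosphate crystals, which is the background to feeding it here. Genes in these tables carry identifiers of the C57BL/6NJ strain, and 0 of 41012 were matched to a symbol. The functions of the members, the Klotho transcript itself and markers of the cell types of the aorta are therefore not analysed here, and members are named by identifier or by their rank in score.

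Libraries held between 9947455 and 18926802 reads. Mouse 4, a library labelled wild type on minimal magnesium, and mouse 20, a library labelled Klotho-/- on minimal magnesium, lay on the side opposite to their labels at the members. Whether their labels were exchanged was not tested, the labels were kept as deposited, and results that rest on them are given with and without them. Since their values singled them out, leaving them out widens the contrast of genotypes on minimal magnesium by construction. Counts without them are a description. The mouse numbers also form a lower run, 1 to 18, and a higher run, 20 to 40, between which many genes differed. The Klotho-/- group on minimal magnesium has 1 mouse in the lower run and 5 in the higher. The Klotho-/- group on high magnesium has 4 and 2, so in Klotho-/- mice diet and mouse number are partly confounded. Of the wild-type mice, 1, 4 and 10 on minimal and 5 and 9 on high magnesium are in the lower run. On each diet the genotypes are thus also unbalanced by run, so genotype and mouse number are partly confounded too. The labels do not say what the numbers stand for. Depth went with the runs, with 9947455 to 13244722 reads in mice 1 to 18 and 13216120 to 18926802 in mice 20 to 40. Run and depth are therefore largely confounded, also where members are compared between the runs below.

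The member of highest score was MGP_C57BL6NJ_G0032615, with a score of 2.76. In wild-type mice on minimal magnesium its level was 10.5, 0.898, 6.91, 13.8, 11.2 and 19.9 CPM in mice 1, 4, 10, 23, 38 and 39. On high magnesium, wild-type mice 5, 9, 25, 26, 29 and 30 had 11.1, 9.06, 17.0, 8.78, 22.0 and 18.9 CPM. Klotho-/- mice 18, 20, 35, 36, 37 and 40 on minimal magnesium had 0.522, 17.4, 0.584, 0.435, 0.425 and 0.181 CPM. The low wild-type value is that of mouse 4 and the high Klotho-/- value that of mouse 20. Klotho-/- mice 11, 12, 13, 16, 31 and 32 on high magnesium had 1.36, 0.201, 0.556, 1.13, 0.955 and 0.378 CPM, all below the lowest wild-type mouse on that diet. With mice 4 and 20 set aside, every wild-type mouse lay above every Klotho-/- mouse. Without those mice the wild-type mean on minimal magnesium was 12.5 ± 4.84 CPM (SD, n = 5) and the Klotho-/- mean was 0.429 ± 0.153 CPM (SD, n = 5). On high magnesium the means were 14.5 ± 5.58 CPM in wild-type and 0.764 ± 0.455 CPM in Klotho-/- mice (SD, n = 6 each). Its single annotated transcript of 1373 bases carried all of these reads. Klotho-/- levels of this size rest on few reads, 3 in mouse 40 and 2 in mouse 12.

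The member of highest read level in wild-type mice, printed by the same rule, was MGP_C57BL6NJ_G0025470, of rank 104 and score 0.77. Wild-type mice 1, 4, 10, 23, 38 and 39 on minimal magnesium had 6998, 5175, 3894, 10424, 11765 and 15416 CPM. Wild-type mice 5, 9, 25, 26, 29 and 30 on high magnesium had 6368, 5476, 14587, 9145, 13557 and 16196 CPM. Within wild-type mice on either diet, every mouse of the higher run had a higher value than every mouse of the lower run. Klotho-/- mice 18, 20, 35, 36, 37 and 40 on minimal magnesium had 5514, 12523, 5029, 4916, 3881 and 4995 CPM, where mouse 20 stands well above the rest. Klotho-/- mice 11, 12, 13, 16, 31 and 32 on high magnesium had 3869, 3251, 3090, 4646, 5850 and 4424 CPM. The groups overlapped on both diets. On high magnesium, 1 wild-type mouse, mouse 9, lay below the highest Klotho-/- mouse. The gene has 1 annotated transcript of 1781 bases, yet its estimated reads were not whole numbers (73745.2 in mouse 1), so the authors' quantification divided reads between it and another gene and its level is uncertain to that degree. Per length, median TPM (transcripts per 1000000) were 3833 in wild-type and 2196 in Klotho-/- mice on minimal magnesium, and 5525 and 1717 on high magnesium, against 6.66, 0.290, 9.39 and 0.428 TPM in the same order for MGP_C57BL6NJ_G0032615.

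**Figure D1:**
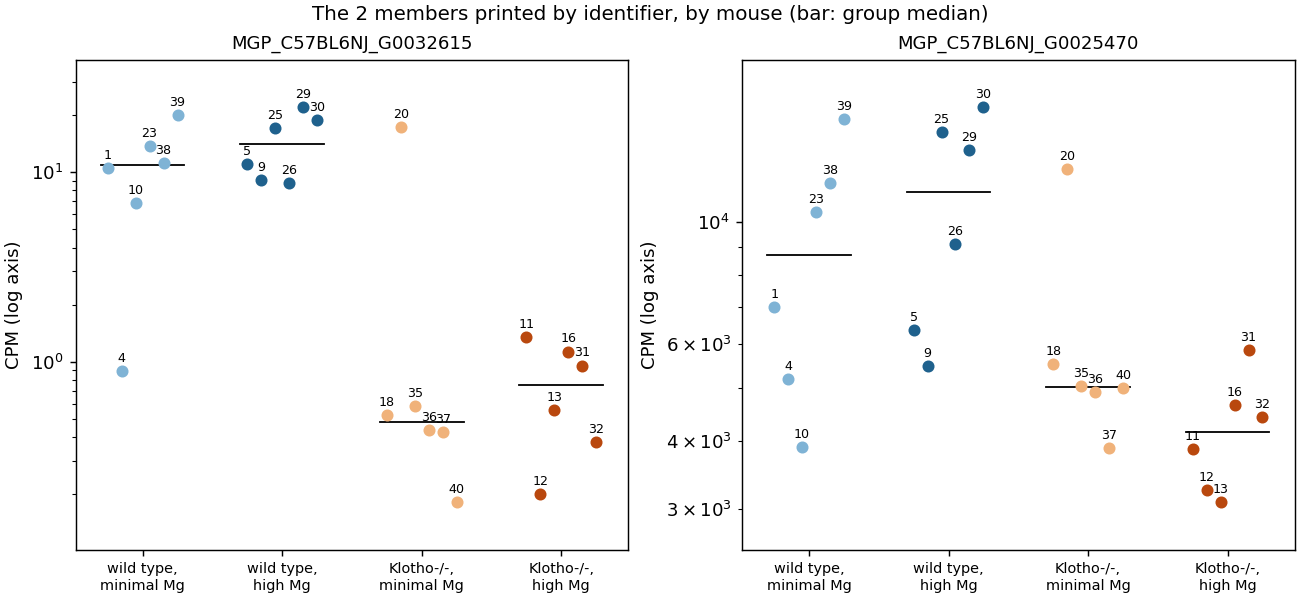
CPM on a log axis (vertical) of MGP_C57BL6NJ_G0032615 (left) and MGP_C57BL6NJ_G0025470 (right) in each library of the 4 groups (horizontal); each point is 1 mouse with its number and each bar a group median. At MGP_C57BL6NJ_G0032615 mouse 4 (0.898 CPM) and mouse 20 (17.4 CPM) lie with the other genotype, and at MGP_C57BL6NJ_G0025470 mouse 20 (12523 CPM) does.

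Scores of the members ran from 0.54 to 2.76 with a median of 0.78, and 52 members scored over 1 and 6 over 2. The boundary was not a gap: the members of ranks 196 to 200 scored 0.55, 0.55, 0.55, 0.54 and 0.54, and the genes just outside 0.54, 0.53, 0.53, 0.53 and 0.53. The members covered a wide span of abundance. Mean wild-type level was under 10 CPM at 57 members, 10 to under 100 at 79, 100 to under 1000 at 58, and higher at 6.

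The median over members of the group median level was 29.7 CPM in wild-type and 14.4 CPM in Klotho-/- mice on minimal magnesium, and 32.6 and 11.6 CPM on high magnesium. The ratio of wild-type to Klotho-/- median CPM had a median of 2.13 over the 200 members on minimal magnesium and of 2.73 over 199 on high magnesium, where the member of rank 2 had a Klotho-/- median of 0 and gives no ratio. It exceeded 2-fold at 107 members on minimal magnesium, at 153 on high magnesium and at 93 on both, and 20 members exceeded 4-fold on both. On the log2(CPM+1) scale the difference, wild type minus Klotho-/-, had a median of 0.88 on minimal magnesium (range 0.54 to 3.53) and 1.25 on high magnesium (range 0.57 to 3.30). Over all 15435 genes with a mean of at least 1 CPM, 195 of the members among them, the same medians were -0.15 and -0.09. In whole tissue, fewer cells of a type and less RNA per cell cannot be told apart.

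At 142 members the difference was the larger on high magnesium, and without mice 4 and 20 at 115. The 2 Klotho-/- medians, which the rule holds close, were higher on high magnesium at 74 members and lower at 126, and without mouse 20 at 98 and 102. The fitted diet effect in Klotho-/- mice was negative at 141 members with all libraries and at 67 without mice 4 and 20, so its prevailing direction turned. The 2 wild-type medians, whose difference the rule does not limit, were higher on high magnesium at 146 members and lower at 54, and without mouse 4 at 115 and 85.

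**Figure D2:**
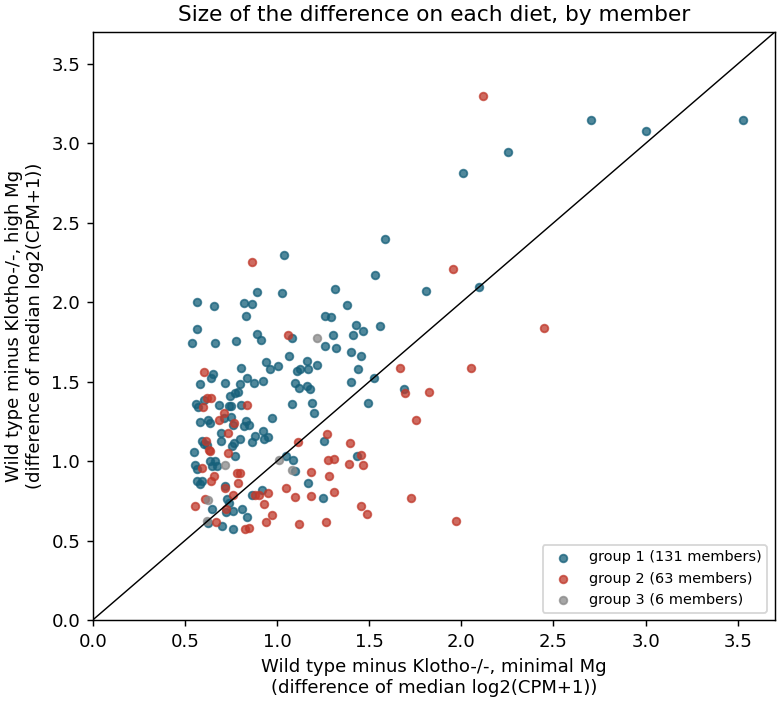
Wild-type minus Klotho-/- difference of median log2(CPM+1) at each of the 200 members, on minimal magnesium (horizontal) and high magnesium (vertical); the line marks equal differences and colours mark 3 groups of members described further on. At 142 members the point lies above the line; without mice 4 and 20 it would at 115.

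Another 6 members can be given in more detail, and they were chosen for description after their values were seen. The member of rank 2 was sparse. In Klotho-/- mice it was at 0 in 5 of 6 on high magnesium, with 8.06 CPM in mouse 32, and its wild-type values on high magnesium ran from 0.771 through a median of 7.92 to 21.6 CPM. On minimal magnesium wild-type mice 4 and 10 were also at 0, so genotype did not separate this gene cleanly on either diet.

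The member of rank 3 was at 28.8, 31.0, 95.5, 50.3, 79.1 and 77.7 CPM in wild-type mice 5, 9, 25, 26, 29 and 30 on high magnesium and at 26.1, 4.02, 9.27, 15.3, 3.76 and 4.01 CPM in Klotho-/- mice 11, 12, 13, 16, 31 and 32. These groups did not overlap, though mouse 11 came close to mouse 5. On minimal magnesium the other wild-type mice had 18.8 to 72.4 CPM and mouse 4 had 3.39 CPM, while Klotho-/- mice had 2.55 to 20.5 CPM apart from mouse 20 at 30.8 CPM.

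The member of rank 5, with 11 annotated transcripts, showed the cleanest separation among these. Klotho-/- mice had 26.3 to 57.1 CPM on high magnesium, and wild-type mice 185 to 772 CPM. On minimal magnesium Klotho-/- mice other than mouse 20 had 44.0 to 60.1 CPM and wild-type mice other than mouse 4 had 110 to 492 CPM. Mouse 20 was at 400 CPM and mouse 4 at 30.3 CPM. The member of rank 12 was tighter within groups, with 273 ± 81.7 CPM in wild-type and 77.8 ± 11.0 CPM in Klotho-/- mice on high magnesium (SD, n = 6 each). Without mice 4 and 20 it had 238 ± 66.7 CPM in wild-type and 82.7 ± 18.9 CPM in Klotho-/- mice on minimal magnesium (SD, n = 5 each).

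At members of ranks 7 and 36 the wild-type values were wide and, mouse 4 aside, fell apart by mouse number. Mouse 4, of the lower run, had 5.49 CPM at rank 7 and 3499 CPM at rank 36, within the range of the higher run. At rank 7, wild-type mice numbered 1, 5, 9 and 10 had 42.1, 40.0, 39.8 and 49.5 CPM, and wild-type mice numbered 23 and above had 1.48 to 14.0 CPM, while Klotho-/- mouse 11 reached 14.9 CPM. At rank 36, an abundant gene, wild-type mice 1, 5, 9 and 10 had 16022, 19371, 20565 and 13467 CPM against 2150 to 8500 CPM in the wild-type mice numbered 23 and above. Klotho-/- mouse 11 had 14523 CPM at that gene, above all wild-type mice of the higher run, and Klotho-/- mice 31 and 32 had 249 and 368 CPM. With all libraries kept, the genotypes overlapped at both members on both diets.

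The members together took up a larger share of the reads in wild-type libraries. On minimal magnesium they held 4.30 ± 1.24% of the reads in wild-type and 2.58 ± 1.29% in Klotho-/- mice (SD, n = 6 each), and without mouse 4 (2.04%) and mouse 20 (5.18%) these were 4.76 ± 0.62% and 2.05 ± 0.17% (SD, n = 5 each). On high magnesium they held 5.17 ± 0.53% and 2.20 ± 0.58% (SD, n = 6 each), and the groups did not overlap. The median of log2(CPM+1) over members, in which each member counts equally, was 3.91 in mouse 4 and 4.99 in mouse 20. It averaged 5.00 ± 0.14 in the other wild-type and 3.86 ± 0.28 in the other Klotho-/- mice on minimal magnesium (SD, n = 5 each), and 5.08 ± 0.08 and 3.91 ± 0.20 on high magnesium (SD, n = 6 each).

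**Figure D3:**
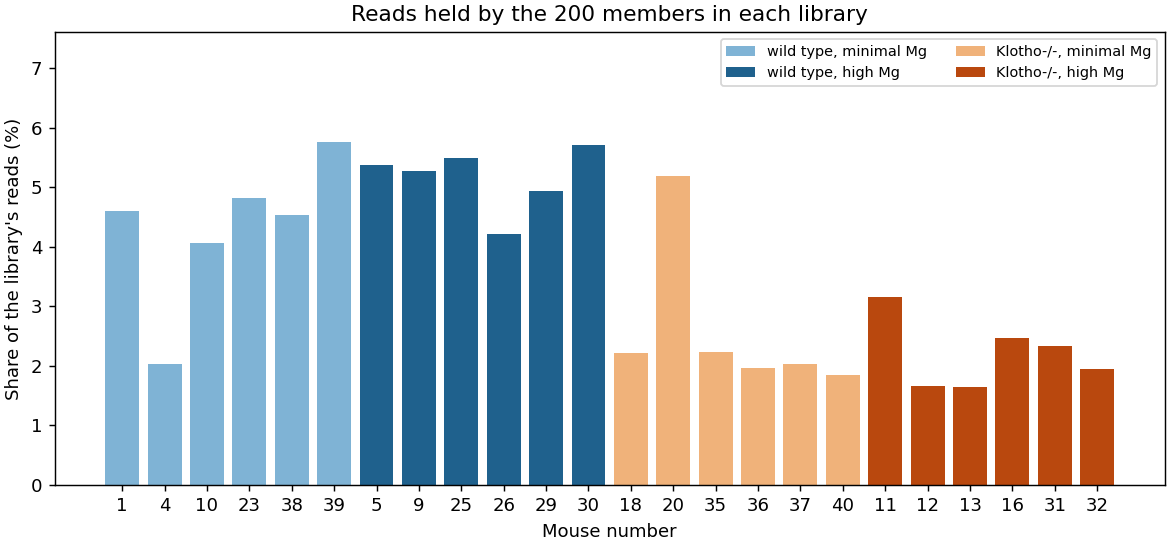
Share of each library's reads (vertical, percent) held by the 200 members, with 1 bar per mouse, coloured by group. Wild-type libraries other than mouse 4 (2.04%) lie between 4.06% and 5.76%, and Klotho-/- libraries other than mouse 20 (5.18%) between 1.65% and 3.16%.

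How far the members would pass a test across all genes is shown as a count only, since the same contrasts chose them. In edgeR's quasi-likelihood fit over 16741 genes, all 200 members passed the filter on low counts, and a gene was called at a Benjamini-Hochberg adjusted p under 0.05. On minimal magnesium, 6 members were called lower in Klotho-/- mice, where 0.125% of all genes tested were. Their ranks were 16, 23, 52, 54, 97 and 178, none of them among the 10 of highest score. On high magnesium 161 members were called lower, where 16.8% of all genes were. The median fitted log2 fold change was -1.02 on minimal and -1.49 on high magnesium (all genes tested -0.02 and 0.04). Without mice 4 and 20 the count on minimal magnesium was 188 members, where 10.5% of genes were called lower, with a median of -1.53. It was 88 with mouse 4 alone left out (4.28% of genes) and 138 with mouse 20 alone left out (3.7% of genes). It was 0 when any 1 of mice 1, 10, 23, 39, 35, 36, 37 and 40 was left out instead, with 0% of all genes called lower. In those fits 91 to 123 members and 13.7 to 19.9% of all genes were at an unadjusted p under 0.05. On high magnesium the count without both mice was 164 (18.4%).

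Fitted values and medians went apart at a few members. On high magnesium the fitted log2 fold change was above 0 at 2 members, those of rank 95 (0.03) and rank 169 (0.61). At rank 169 the Klotho-/- median on high magnesium was 5.59 CPM and the wild-type median 11.6 CPM, but Klotho-/- mouse 32 had 126 CPM and mouse 12 had 33.4 CPM. These members are lower in Klotho-/- mice by the median alone.

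Every Klotho-/- mouse lay below every wild-type mouse at 1 member on minimal magnesium, where 0.0907% of the 15435 genes did, and at 95 members on high magnesium, where 4.96% did. Without mice 4 and 20 the count on minimal magnesium was 92 members (2.85% of genes). With both diets pooled and the same mice left out, 42 members (0.622% of genes) had all 11 Klotho-/- mice below all 11 wild-type mice.

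Values within each run of mouse numbers come from the libraries that chose the members, so their signs are largely fixed by the rule and are a description. Among mice 20 to 40 the fitted log2 fold change was negative at 199 of 200 members on minimal magnesium, where 55.3% of all genes were negative, with a median of -1.20, and edgeR called 23 lower, where 1% of genes were. On high magnesium it was negative at 196 members (49.3% of genes), with a median of -1.63 and 101 called lower (12% of genes). Among mice 1 to 18 it was negative on high magnesium at 196 of 199 members (47.7% of genes), with a median of -1.28 and 48 called lower (3.59% of genes). On minimal magnesium that run has a single Klotho-/- mouse, which the fit takes to vary like the other groups, and still includes mouse 4. There the value was negative at 164 of 199 members (50.4% of genes) with a median of -0.52, and edgeR called 0 lower, where 0% of genes were (18 members at unadjusted p under 0.05, where 3.93% of genes were). With a term for the run of mouse numbers in the fit of all libraries, edgeR called 3 members lower on minimal magnesium (0.0239% of genes) and 163 on high magnesium (17.2%).

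A pair of readings used libraries that took no part in the choice of genes. In the first, each mouse was left out, the 200 genes were chosen again from the other 23 libraries, and the mouse was placed above or below the midpoint of the wild-type and Klotho-/- medians of its own diet. More than 50% of the chosen genes lay on the side of the label in 21 of 24 mice. Wild-type mice other than mouse 4 lay below the midpoint at 8.0 to 65.5% of the genes on minimal and 10.5 to 34.5% on high magnesium. Klotho-/- mice other than mouse 20 did so at 67.5 to 96.5% and 72.5 to 93.5%. Mouse 4, labelled wild type, was below the midpoint at 93.0% of the genes, and mouse 20, labelled Klotho-/-, at 3.5%. The remaining exception was wild-type mouse 10, at 65.5%. Wild-type mouse 1, at 49.5% (99 of 200 genes), was on its label's side by a margin too small to place it. Over all genes of at least 1 CPM mouse 10 was below the midpoint at 71.7%, mouse 4 at 39.1% and mouse 20 at 57.7%, and set against its own share over all genes, each of the 22 mice other than 4 and 20 lay on the side of its label.

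**Figure D4:**
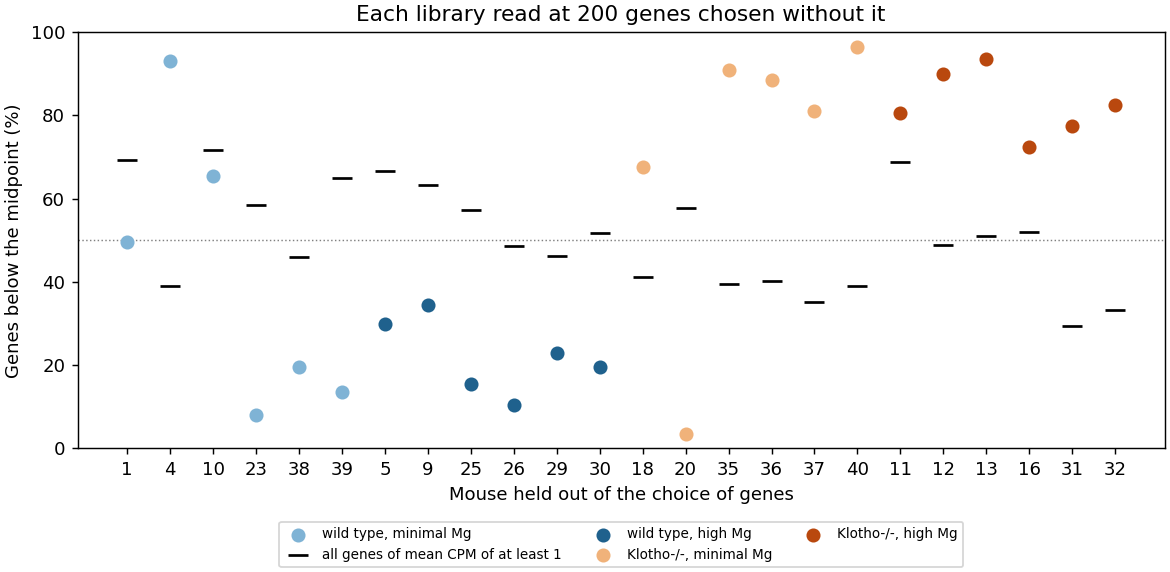
Share of genes below the midpoint of the genotypes (vertical, percent) in each mouse (horizontal, by mouse number), at 200 genes chosen without that mouse (points, coloured by group) and over all genes with a mean of at least 1 CPM (dashes). Mouse 4 (93.0%) lies among the Klotho-/- mice and mouse 20 (3.5%) below all wild-type mice.

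In the second reading the genes were chosen on 1 diet and read on the other, with no condition on the Klotho-/- medians. Of 200 genes with the largest wild-type minus Klotho-/- difference on minimal magnesium, 147 had a negative fitted value on high magnesium, where 47.1% of all genes did, and the median log2 fold change was -0.82 (all genes 0.04). There edgeR called 77 of them lower in Klotho-/- mice on high magnesium, where 16.8% of all genes were, and 3 higher, where 16.3% were. The count of lower genes was 46 without mouse 38 (17.4% of all genes) and 48 without mouse 39 (16.7%), nearer the share over all genes. Both mice are wild type on minimal magnesium, and their libraries entered the choice. Of the 200 with the largest difference on high magnesium, 199 were tested on minimal magnesium, 144 had a negative value (52.7% of all genes did) and the median was -0.54 (all genes -0.02). Here edgeR called 0 lower and 4 higher, where 0.125% and 0.699% of all genes were, while 68 were at an unadjusted p under 0.05 (21.4% of all genes were). DESeq2 called 12 lower, where it called 1.54% of all genes lower, and limma-voom with library weights 96, where it called 16.8% lower. With mice 4 and 20 left out of both the choice and the fit, edgeR called 95 of 200 lower (10.5% of genes) with a median of -0.97. These mice were singled out by values opposite to their labels, so a rise is built into this count and it is a description. The count on minimal magnesium thus changed with those 2 libraries and with the tool.

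The effect of diet in wild-type mice was not limited by the rule other than through the smaller median. In edgeR's fit, 166 of the 200 members had a positive log2 fold change, high minus minimal magnesium, whereas 56.5% of all genes tested had a negative one. The median was 0.31 at the members and -0.04 over all genes. None passed the test: edgeR, DESeq2 and limma-voom each called 0 members. Over all genes edgeR and limma-voom called 0% and DESeq2 1.29%, nearly all of them lower on high magnesium (1.25%), and the smallest adjusted p at a member was 0.554 in edgeR. At an unadjusted p under 0.05 edgeR had 1 member, where 7.88% of genes were. Without mice 4 and 20 a positive value was found at 134 members with a median of 0.16, while 52.2% of all genes were negative. Among mice 20 to 40 it was found at 114 members with a median of 0.06 (53.3% of genes negative), and among mice 1 to 18, mouse 4 included, at 168 of 199 with a median of 0.49 (53.8% of genes negative). The excess of positive values was thus smaller without mice 4 and 20, and smallest in the higher run.

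In Klotho-/- mice, edgeR called 2 members for diet, 1 lower and 1 higher on high magnesium. Of all genes, 13.2% were called lower and 11.7% higher. With 1 library left out at a time it called 1 to 6 members, where 17.8 to 30.1% of all genes were called. The limit of 0.5 on the medians bounds this count. The member called lower, of rank 155, was scarce: its Klotho-/- mice ran from 0.174 to 1.31 CPM on minimal magnesium and from 0 to 0.255 CPM on high magnesium, with wild-type medians of 1.28 and 1.42 CPM. The member called higher was that of rank 169, where Klotho-/- mice 12 and 32 stood high.

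The interaction of genotype and diet is the difference between the diet effects of Klotho-/- and wild-type mice. The limit of 0.5 on the Klotho-/- medians partly bounds it at the members. The interaction was called at 1 member, where 6.24% of all genes were called lower and 4.69% higher. This was the member of rank 138, with a log2 interaction of -1.78 ± 0.57 (SE, edgeR adjusted p = 0.047). With 1 library left out at a time the count ran from 0 to 3 members, where 7.16 to 16.5% of all genes were called. Wild-type mice 1, 4, 10, 23, 38 and 39 on minimal magnesium had 39.6, 39.6, 44.6, 109, 119 and 137 CPM, and wild-type mice on high magnesium had 112 to 187 CPM. Klotho-/- mice on minimal magnesium had 33.9 to 58.2 CPM with mouse 20 at 188 CPM, and on high magnesium 23.0 to 42.6 CPM. Wild-type mice 1, 4 and 10, all of the lower run, were thus at the level of Klotho-/- mice. Wild-type mice 5 and 9, of the lower run but on high magnesium, were not, with 119 and 127 CPM. Without mice 4 and 20 the interaction at this member was -0.93 ± 0.36 (SE, edgeR adjusted p = 0.0932), and with a term for the run of mouse numbers it was -1.48 ± 0.55 (SE, edgeR adjusted p = 0.113), so the call was lost in both. Over all members the median interaction was -0.55 with all libraries (all genes 0.06) and -0.01 without those mice.

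The 200 members were not 1 unit in their variation among mice of a group. Other sets of genes were not taken apart in the same way, so this is not shown to be particular to the members. With group means taken off and mice 4 and 20 left out, the first principal component of the members held 53.5% of the variance over 22 libraries and the second 11.1%, and 133 members had a positive and 67 a negative weight on the first. The median correlation over 19900 pairs of members was 0.169, against 0.125 over an evenly spaced subset of the pairs of the 15435 expressed genes. Both were taken over the same 22 libraries, so differences of depth and between the runs of mouse numbers enter both. Members were split by these correlations into 3 groups of 131, 63 and 6, a division made after seeing the values and given as a description.

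These groups, made from the same libraries, varied with the run of mouse numbers in different ways. In a fit with a term for mice 20 to 40 against mice 1 to 18 added to the 4 groups, edgeR called 42 members higher in the higher run, where 16.4% of all genes were, and 24 lower, where 14.5% were. Both shares of the 200 members lie near those over all genes. All 42 were in the group of 131 and all 24 in the group of 63, which is no independent reading of the split. Without mice 4 and 20 the counts were 42 (19.6% of genes) and 51 (17.3%). MGP_C57BL6NJ_G0025470, in the group of 131, was 0.71 higher in the higher run on the log2 scale (edgeR adjusted p = 0.0264). The members of ranks 7 and 36, in the group of 63, were lower by the same measure, -2.59 (edgeR adjusted p = 0.017) and -2.18 (edgeR adjusted p = 0.0274).

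In the group of 131, the median level relative to the wild-type median was -0.94 to -0.37 in wild-type mice of the lower run and -0.01 to 0.57 in those of the higher run, on the log2(CPM+1) scale. Klotho-/- mice were at -1.64 to -0.94 in the lower run and -1.45 to -0.81 in the higher. In the group of 63 the wild-type order was the other way, with 0.26 to 0.92 in the lower and -0.42 to 0.12 in the higher run, and Klotho-/- mice at -1.01 to -0.62 and -1.45 to -0.78. Mouse 4 was at -1.58 and -0.74 in the 2 groups and mouse 20 at 0.08 and 0.02. These 2 libraries aside, wild-type mice of these 2 groups lay above Klotho-/- mice within each run, except that in the group of 131 wild-type mouse 10 and Klotho-/- mouse 18, both of the lower run, were both at -0.94. Across runs, mouse 10 also came within the range of the Klotho-/- mice of the higher run in that group. In the group of 6 members the genotypes overlapped in the higher run, with wild-type mice at -0.43 to 0.63 and Klotho-/- mouse 32 at -0.02.

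Members were more variable than other genes around their group means. The median biological coefficient of variation was 49.2% at the members and 27.5% over all genes tested, and without mice 4 and 20 it was 37.5% and 26.2%. The comparison was not matched for abundance, and 57 members averaged under 10 CPM in wild-type mice. How far the choice by large differences of medians favours variable genes was not tested.

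Most of the members' transcripts had lower medians in Klotho-/- mice. The members were chosen on their gene sums, so this direction is largely fixed by the rule and is a description. The same share over all genes was not computed. The members have 716 annotated transcripts, of which 475 averaged at least 10 estimated reads. Of these, 409 had a lower median in Klotho-/- mice on both diets, 55 on 1 diet and 11 on neither. Exactly 1 such transcript was found for 99 members, where it largely restates the gene sum. With 2 or more such transcripts there were 99 members, of which 52 had every one of them lower on both diets and 47 did not. Transcript estimates of a gene share reads and are not independent. A single annotated transcript was found for 69 members, or 34.5%, against 28.9% of all genes of at least 1 CPM, and the longest transcript had a median length of 2731 bases against 3039.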

How the data were processed

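The submitters' processing notes name FastQC, Salmon and mm10; versions are not given in the sources used here. Per the labels, RNA was isolated with TRIzol and had no DNase step. The deposited tables, 1 per mouse, give for each of 102919 transcripts an estimated count of reads, which Salmon divides by model between transcripts that share sequence, and a TPM value, per the file headers. Transcript lengths were read from the same tables.

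Estimated counts were summed per gene. CPM used the file's total and a pseudocount of 1 on the log2 scale, so differences of scarce genes are understated. For tests, sums were rounded and fitted with edgeR 4.0.16 in R 4.3.3 (TMM scaling, filterByExpr, quasi-likelihood with robust estimates, 4 group means over 24 libraries), with Benjamini-Hochberg adjustment over 16741 genes and a threshold of 0.05. Standard errors of log2 fold changes come from the same fit. Alternatives were RLE scaling, DESeq2 1.42.0, limma-voom with library weights (limma 3.58.1), no filter on low counts, a model of only the groups compared, a term for the runs of mouse numbers, and libraries left out. The fits within each run of mouse numbers, the fits of the mouse number term at the members, the counts without overlap and the directions of medians without mice 4 and 20 were added after seeing the data. Mice 4 and 20 were themselves singled out by their values in these data. Python 3.11.15 and scipy 1.17.1 were used for summaries and for grouping members by average linkage. Among 60 pairs of libraries of 1 group, chi-square per degree of freedom was at least 13.4, so no library repeated another of its group. Pairs across groups were not compared.

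The members and lists were chosen with earlier results of these data known. The naming rule printed 2 identifiers, the member of highest score and, among the others, the one of highest mean wild-type CPM; other members are given by rank. Lists of marker and pathway genes needed symbols and are not analysed here. Samples were grouped by the genotype and diet of their labels. Depth limits scarce members most, where Klotho-/- levels rest on few reads.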

Additional observations from a re-analysis of the deposited data

Results flagged for a closer look

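In groups of 6, 20 sets of values at the members were examined for a library far from the others. Its gap to its nearest neighbour had to take up more than 0.625 of the group's whole range. Of the 20 sets, 5 had such a library. For independent sets chance gives about 1 in 20, but these sets share the same mice, so the count is no test. All 5 concern the libraries of mice 4 and 20. In wild-type mice on minimal magnesium, the median log2(CPM+1) over members was 3.91 in mouse 4, far below the other 5. In Klotho-/- mice on minimal magnesium, mouse 20 stood apart in the members' share of reads (5.18%). It stood apart again in the share of genes below the midpoint when left out of the choice (3.5%). Its level of MGP_C57BL6NJ_G0032615 (17.4 CPM) was above every other mouse of its group, as was its level of MGP_C57BL6NJ_G0025470 (12523 CPM). Whether the labels of these 2 libraries were exchanged was not tested, and the labels were kept as deposited.

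The effect of diet differed between genotypes at the member of rank 138, with a log2 interaction of -1.78 (edgeR adjusted p = 0.047), and without mice 4 and 20 its adjusted p was 0.0932. With a term for the run of mouse numbers in the fit it was -1.48 (edgeR adjusted p = 0.113). The call was thus lost in either case.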

How the results depend on the processing

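Over 12 results, 268 alternative values were computed, of which 190 stayed within 1.5 times the reported value and 78 did not. Members called lower in Klotho-/- mice on minimal magnesium numbered 46 with DESeq2 (1.54% of all genes), 187 with limma-voom (16.8%) and 1 with no filter (0.00643%). With only the groups compared the count was 0 (0%), and 99 members and 20.1% of all genes were at an edgeR unadjusted p under 0.05. The count was 188 without mice 4 and 20 (10.5%), 3 with a term for mouse numbers (0.0239%) and 23 in mice 20 to 40 (1%). Leaving out 1 library at a time gave 0 to 138, with 88 when mouse 4 and 138 when mouse 20 was the library left out. On high magnesium the count was 101 in mice 20 to 40 (12% of all genes) and 48 in mice 1 to 18 (3.59%). With 1 library left out it was 146 to 166 (13.8 to 17.8%). Members called for diet in Klotho-/- mice numbered 8 with DESeq2 (30.8% of all genes), 1 with limma-voom (33%) and with no filter (10.6%). They numbered 0 with only the groups compared (22.8%), 7 in mice 20 to 40 (11.8%), and 1 to 6 with 1 library left out (17.8 to 30.1%). For the interaction the count was 6 with DESeq2 (16.4% of all genes) and 0 to 3 with 1 library left out (7.16 to 16.5%). It was 0 with no filter (3.74%), without mice 4 and 20 (11.1%), with the mouse number term (6.31%) and in mice 20 to 40 (2.2%). Genes chosen on high and called lower on minimal magnesium numbered 12 with DESeq2 (1.54% of all genes), 96 with limma-voom (16.8%) and 95 without mice 4 and 20 (10.5%). They numbered 1 with the mouse number term (0.0239%), 9 in mice 20 to 40 (1%), and 0 to 59 with 1 library left out (0 to 4.28%). Genes chosen on minimal and called lower on high magnesium numbered 28 in mice 1 to 18 (3.59% of all genes). With 1 library left out they numbered 46 to 107 (13.8 to 17.8%), with 46 without mouse 38 (17.4%) and 48 without mouse 39 (16.7%). For diet in wild-type mice the count stayed at 0 throughout. Choosing members by group means kept 123 of the 200, a limit of 0.25 between Klotho-/- medians kept 131, leaving out mice 4 and 20 kept 145, and leaving out 1 library kept 155 to 188. Members without overlap on minimal magnesium numbered 92 without mice 4 and 20. Some of these fits held fewer samples or genes, and the cause of the shifts was not tested.

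No paired analysis was possible because each mouse number occurs once in the labels. The members rest on medians of 6 libraries and on a cut with no gap, so ranks near 200 are exchangeable with genes just outside. Symbols, cell types and function were not read, and the numbers of mice in each run differ between groups.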
